A study of Homo sapiens with 9 samples.

Results

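A set of 10 mitochondrial tRNA genes, MT-TF, MT-TV, MT-TL1, MT-TI, MT-TM, MT-TY, MT-TG, MT-TH, MT-TT and MT-TP, were followed window by window through an eCLIP experiment on malate dehydrogenase 2 (MDH2). They comprise 10 of the 22 mitochondrial tRNA genes and 22 of the 15767969 windows in the count table. They were chosen by their measured counts and with the comparison of MDH2 IP with the input already known, so that comparison is given here as a description. MDH2 is an enzyme of the tricarboxylic acid cycle in the mitochondrial matrix, and eCLIP is a sequencing assay of the RNA positions to which UV light cross-links a protein. All 9 libraries came from unmodified Huh7 cells, a human hepatoma line, cross-linked in culture. There were 3 libraries of an IP with an antibody against MDH2 (MDH2 IP), 3 of a size-matched input (SMI), a portion of lysate that went through no IP and was cut from the same range of the gel, and 3 of an IP with control IgG (IgG IP). No time, dose or genotype differed between the groups. Both kinds of IP library received 14 cycles of PCR, whereas SMI libraries received 9. The labels do not say that replicates came from separate cultures, so p-values measure the spread between these libraries, which may be technical.

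Mitochondrial DNA is transcribed from both strands into long precursors, and tRNAs lie between the rRNA and mRNA segments. RNase P cuts a tRNA at its 5′ end and RNase Z at its 3′ end, which also frees the neighbouring rRNA or mRNA. The mature tRNA receives a CCA tail and carries its amino acid to the mitochondrial ribosome, where its anticodon reads the codons of the mitochondrially encoded mRNAs. The tRNA for valine is also known as a structural part of the large subunit of the human mitochondrial ribosome.

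The sequences of the 10 genes are shown because each window is a stretch of one of them. They were read from the mitochondrial chromosome of GRCh38, 5′ to 3′ on the gene's own strand, with the anticodon in capitals (written as DNA).
MT-TF (phenylalanine, chrM:577-647, plus strand): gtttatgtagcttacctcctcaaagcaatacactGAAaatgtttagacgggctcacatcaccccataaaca
MT-TV (valine, chrM:1602-1670, plus strand): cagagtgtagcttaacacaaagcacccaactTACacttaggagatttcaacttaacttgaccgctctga
MT-TL1 (leucine, chrM:3230-3304, plus strand): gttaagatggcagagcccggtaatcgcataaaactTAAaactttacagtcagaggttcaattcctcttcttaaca
MT-TI (isoleucine, chrM:4263-4331, plus strand): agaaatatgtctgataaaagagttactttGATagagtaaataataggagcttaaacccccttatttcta
MT-TM (methionine, chrM:4402-4469, plus strand): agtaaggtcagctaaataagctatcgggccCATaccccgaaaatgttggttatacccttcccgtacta
MT-TY (tyrosine, chrM:5826-5891, minus strand): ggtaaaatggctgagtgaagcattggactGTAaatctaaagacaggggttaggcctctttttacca
MT-TG (glycine, chrM:9991-10058, plus strand): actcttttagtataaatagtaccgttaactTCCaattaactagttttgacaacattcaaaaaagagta
MT-TH (histidine, chrM:12138-12206, plus strand): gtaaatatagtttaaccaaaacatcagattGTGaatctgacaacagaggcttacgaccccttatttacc
MT-TT (threonine, chrM:15888-15953, plus strand): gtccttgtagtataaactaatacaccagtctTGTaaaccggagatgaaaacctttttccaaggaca
MT-TP (proline, chrM:15956-16023, minus strand): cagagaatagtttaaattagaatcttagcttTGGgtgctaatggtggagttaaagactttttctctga

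A window was 50 nt long and started every 20 nt, so MT-TF and MT-TL1 had 3 windows and the other 8 genes had 2. Each count was a cross-link site, taken 1 nt upstream of the start of an aligned read. The first window (W1) and the last overlapped in every gene with 2 windows, the anticodon lay in that overlap, and a site in the overlap entered both. Window numbers followed the coordinate of the mitochondrial genome. Among pairs of nested single-exon genes, 32 of 32 window pairs on the plus strand held identical counts when numbered from the 5′ end, and 13 of 13 on the minus strand when numbered from the 3′ end. W1 of MT-TY and MT-TP, on the minus strand, was therefore the 3′ part of the RNA, and W1 of the 8 plus-strand genes was the 5′ part.

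Window counts per library ranged from 5899767 to 9482209 for MDH2 IP, from 8311027 to 9788461 for SMI and from 1631220 to 2942624 for IgG IP. The IgG IP libraries were the shallowest, and the counting error of a value depends on the count in its window. The 10 genes took 0.118% ± 0.0349 of all window counts in MDH2 IP, 0.1003% ± 0.0231 in IgG IP and 0.0426% ± 0.0139 in SMI (SD, n = 3). Levels are given as CPM, counts per 1000000 of a TMM-scaled library size. That size was the sum over windows with at least 10 counts in 3 or more of the 9 libraries, not all window counts. CPM and the shares above are therefore on different scales, and the order of the IPs can differ between them. Differences are log2 fold changes of edgeR's quasi-likelihood test over all windows tested. The 8 hepatocyte genes examined (ALB, AFP, APOA1, APOB, TTR, SERPINA1, FGB and AHSG) were all detected in SMI. In sum they held 4933 to 6440 counts per 1000000 of all window counts, without TMM. Of 5 markers of other cell types, PTPRC, CD3E, COL1A1 and KRT5 held at most 5 counts in any SMI library and PECAM1 held 74 to 92. A window was called higher or lower when its adjusted p did not exceed 0.05 and its log2 fold change reached 1 in that direction.

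Among first windows, MT-TH had the highest mean level in every group and MT-TV the lowest. All first windows were 50 nt long, so their levels compare at equal length. MT-TH, which decodes histidine codons, held 1271, 1602 and 1061 counts in W1 in the MDH2 IP libraries, 611, 976 and 443 in SMI and 630, 235 and 175 in IgG IP. These counts corresponded to levels of 793 ± 184 CPM in MDH2 IP, 1100 ± 302 in IgG IP and 446 ± 158 in SMI (SD, n = 3). In each group every library of MT-TH W1 lay above every library of the first window next in order. Over all windows this held for the genes in both IPs but not in SMI, where MT-TV W2 stood at 463, 511 and 567 CPM and MT-TH W1 at 460, 596 and 281.

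The next genes in MDH2 IP were MT-TY at 364 ± 92.4 CPM, MT-TP at 299 ± 43.6, MT-TM at 281 ± 84.8, MT-TT at 205 ± 53.5, MT-TG at 202 ± 59.6, MT-TI at 183 ± 52.2 and MT-TF at 167 ± 58.1. MT-TL1 followed at 118 ± 46.4 CPM and MT-TV W1 at 51.9 ± 5.04 (SD, n = 3). From MT-TY to MT-TL1, neighbours in this order overlapped between libraries. MT-TV lay below MT-TL1 in every MDH2 IP library.

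In IgG IP, MT-TY and MT-TP were again next after MT-TH, at 598 ± 121 and 577 ± 75.9 CPM, and both lay above MT-TM at 360 ± 47.4 in every library. MT-TT was the gene whose place differed most between the groups, as a description. It was the third gene in SMI at 90.9 ± 23.2 CPM, the fifth in MDH2 IP and the ninth in IgG IP at 133 ± 32.5. The lowest first windows in SMI were MT-TL1 at 30.2 ± 3.26 and MT-TV at 19.8 ± 8.57 CPM, which overlapped.

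**Figure D1:**
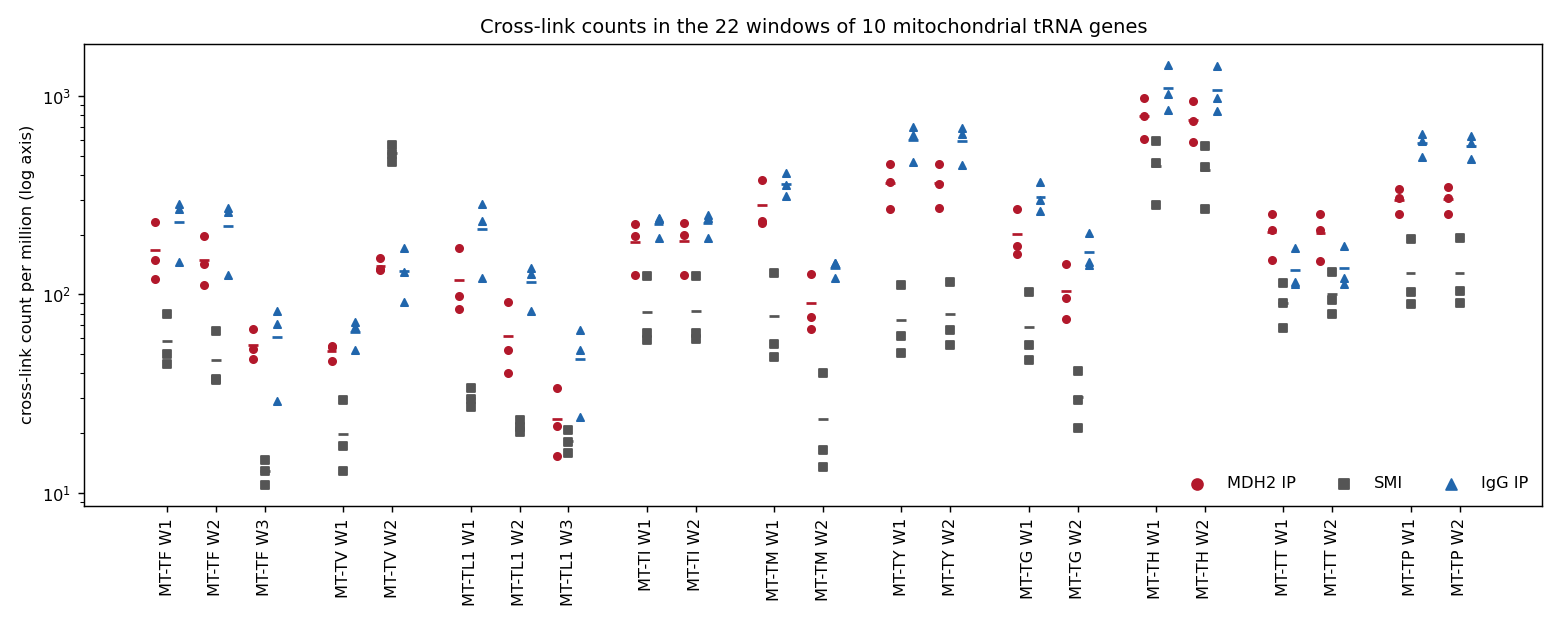
Cross-link counts as CPM (log axis) in each of the 22 windows, with a point for each library and a bar for the mean of 3 libraries (circles, MDH2 IP. Squares, SMI. Triangles, IgG IP). MT-TH holds the highest windows in both IPs, and in SMI MT-TV W2 has the highest mean and lies above both IPs.

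Against SMI, the MDH2 IP was higher in nearly all of these windows, and so was the IgG IP. Of the 22 windows, 17 were called higher and 1 lower in MDH2 IP than in SMI. Over all 51105 windows tested, 4.07% were called higher and 9.92% lower. Because the genes were selected on this comparison, nothing is read from their count. Every MDH2 IP library lay above every SMI library in 20 windows, below in 1 (MT-TV W2), and the groups overlapped in 1 (MT-TL1 W3), while over all windows tested 17.9% lay above and 19.6% below without overlap. The median log2 fold change of the 22 windows was 1.41, against 0.05 over all windows tested.

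MT-TY, the tyrosine tRNA from the minus strand, showed the largest value. Its W1 held 562, 744 and 495 counts in MDH2 IP, 82, 182 and 80 in SMI and 306, 146 and 96 in IgG IP. Over SMI, the log2 fold change of MDH2 IP was 2.26 (SE 0.28) in W1 and 2.17 (SE 0.27) in W2. MDH2 IP and SMI did not overlap in either window.

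MT-TF, the phenylalanine tRNA at the start of the rRNA-bearing precursor, was called higher in each of its 3 windows, with log2 fold changes over SMI of 1.498 (SE 0.27), 1.66 (SE 0.27) and 2.10 (SE 0.29). Its W3, the last 31 nt, held 110, 109 and 63 counts in MDH2 IP, 17, 18 and 23 in SMI and 31, 19 and 6 in IgG IP. MT-TM, the methionine tRNA used for initiation and elongation, had values of 1.83 (SE 0.30) in W1 and 1.91 (SE 0.34) in W2. MT-TG had 1.53 (SE 0.28) and 1.75 (SE 0.29).

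MT-TI had the same value in both windows, 1.13 (SE 0.28), and MT-TP had 1.20 (SE 0.26) in both. MT-TH was above SMI by 0.81 (SE 0.25) in W1 and 0.82 (SE 0.24) in W2. Both windows missed the fold and the adjusted p needed for a call, and MT-TH was the only gene of the 10 with no called window. MT-TT was called in W1 at 1.15 (SE 0.25), while W2 at 0.99 (SE 0.25) missed the fold. The windows of MT-TT lie just inside and just outside the fold threshold, and the values of MT-TT W1 and W2 differ by less than their standard errors.

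The call over SMI rested on some libraries more than others. It was made in 17 windows with all libraries, in 8 without SMI replicate 1 and in 11 without SMI replicate 3. In CPM, SMI replicate 2 was the highest SMI library in 19 of the 22 windows, as in MT-TM W1 with 75, 209 and 76 counts in SMI replicates 1 to 3, and MDH2 IP replicate 2 was the highest MDH2 IP library in 21.

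The comparison of the IgG IP with SMI shares its SMI libraries with the comparison known when the genes were chosen. Its calls and p-values are therefore not free of that choice. The IgG IP was higher than SMI in 19 of the 22 windows and lower in 1, where 6.17% of 26666 windows tested were called higher and 6.34% lower. These shares depended on the windows tested. Without SMI replicate 1, 2 or 3, 7279, 7248 and 7267 windows were tested, and 950, 993 and 966 of them were called higher. Of the 22 windows, 16, 19 and 16 were then called higher, with medians of 1.90, 2.22 and 1.87. With all libraries, MT-TY W1 was highest, with a log2 fold change of 3.33 (SE 0.29, edgeR adjusted p = 3.1e-18). MT-TL1 W1 followed at 3.15 (SE 0.31, edgeR adjusted p = 2.9e-15). MT-TL1, which decodes UUR leucine codons, held 103, 66 and 25 counts in W1 in IgG IP against 36, 55 and 47 in SMI and 176, 280 and 132 in MDH2 IP. The raw counts of IgG IP and SMI overlap there, but the IgG IP libraries were smaller, and at equal scale the window stood at 121 to 287 CPM against 27.1 to 33.6 in SMI.

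The remaining windows called higher in IgG IP had log2 fold changes over SMI between 1.63 in MT-TH W1 and 3.23 in MT-TY W2. MT-TT stood apart from the other 9 genes. Its W1 held 310, 418 and 284 counts in MDH2 IP, 120, 187 and 107 in SMI and 75, 26 and 24 in IgG IP. In W1 the IgG IP was above SMI by a log2 fold change of 0.90 (SE 0.29, edgeR adjusted p = 0.0455), which missed the fold needed for a call, and in W2 by 0.78 (SE 0.29, adjusted p = 0.124). In CPM the IgG IP and SMI libraries of MT-TT overlapped in both windows. Every IgG IP library lay above every SMI library in 19 of the 22 windows and below in 1, where 8.04% and 32.3% of all windows tested did so. The median over the 22 windows was 2.48, against -0.18 over all windows tested. The MDH2 IP and the IgG IP were set against the same SMI libraries, so the 2 comparisons are not independent.

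Summed over windows, 8 of the 10 genes were higher in IgG IP than in SMI and MT-TV was lower, where 16.4% of 15708 genes tested were higher and 11.4% lower at an adjusted p of at most 0.05. MT-TT was the gene not called, with a log2 fold change of 0.39 (SE 0.29, edgeR adjusted p = 0.359).

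Between the IPs themselves, no window was called higher in MDH2 IP, and 1, MT-TP W1, was called lower. The comparison of the IPs shares its MDH2 IP libraries with the comparison known when the genes were chosen. Its calls and p-values, by window or summed per gene, are therefore not free of that choice. Of the 30424 windows tested in this comparison, 0.148% were called higher and 4.77% lower. By edgeR, 13 of the 22 windows had an unadjusted p under 0.05, 4 had an adjusted p of at most 0.05 (both windows of MT-TY and of MT-TP), and DESeq2 called 0 windows in either direction. MT-TP, the proline tRNA from the minus strand, held 527, 556 and 409 counts in W1 in MDH2 IP, 136, 312 and 141 in SMI and 217, 137 and 133 in IgG IP. Its level was 299 ± 43.6 CPM in MDH2 IP and 577 ± 75.9 in IgG IP (SD, n = 3), with no overlap between the libraries. The log2 fold change of MDH2 IP over IgG IP was -1.04 (SE 0.24, edgeR adjusted p = 0.00293) in W1 and -0.99 (SE 0.24, adjusted p = 0.00553) in W2. This call held without IgG IP replicate 1 (-1.19) and was lost when any other of the 6 libraries was taken out alone, with values from -0.70 to -0.99. Without IgG IP replicate 3, MT-TL1 W1 was the window called lower, at -1.22.

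The libraries of the IPs overlapped in 19 of the 22 windows and were lower in MDH2 IP in 3 (MT-TY W1 and both windows of MT-TP). Over all windows tested, 9.34% lay lower and 15.7% higher in MDH2 IP without overlap. MT-TY was lower by a log2 fold change of -0.81 (SE 0.24, edgeR adjusted p = 0.0394) in W1 and -0.80 (SE 0.24, adjusted p = 0.0431) in W2, short of the fold needed for a call. MT-TT was the single gene with values above 0, 0.51 (SE 0.29) in W1 and 0.47 (SE 0.29) in W2, both with an edgeR adjusted p of 1.

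The direction between the IPs depended on the library size and scaling used. With TMM the library size was the sum over the windows tested. With total counts it was the sum over all windows in the count table, without TMM factors, so the settings differ in both respects. With TMM, 20 of the 22 windows were below 0 and the median was -0.63, while all windows tested had a median of 0.15. With total counts as the library size, 17 of the 22 were above 0, 2 were called higher and 0 lower, and the median was 0.20, while that of all windows rose to 0.93. Relative to the median of all windows the members stood at -0.77 with TMM and at -0.73 with total counts, and 20 of the 22 lay below that median under both. This distance depended on the libraries and the windows tested. Without MDH2 IP replicate 1, 2 or 3, the windows tested fell from 30424 to 7916, 8117 and 8276. The members' median with TMM was then -0.18, -0.53 and -0.25, and that of all windows 0.01, 0.02 and -0.02. Total counts also turned the balance of calls over all windows, from 45 higher and 1452 lower to 2040 higher and 564 lower between the IPs, from 2080 and 5070 to 9736 and 2569 for MDH2 IP over SMI, and from 1645 and 1690 to 1071 and 4433 for IgG IP over SMI.

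With counts summed per gene and scaled over genes, the IPs differed in 1 of the 10 genes, and the median was 0.12 against 0.02 over all genes tested. At an adjusted p of at most 0.05, 4.64% of 15491 genes tested were higher in MDH2 IP and 7.77% lower. MT-TT was the gene called, higher in MDH2 IP by a log2 fold change of 1.18 (SE 0.29, edgeR adjusted p = 0.0289). The call for MT-TT was lost without MDH2 IP replicate 2 or 3 and without IgG IP replicate 2 or 3. The other 9 genes had values between -0.30 (SE 0.19) in MT-TP and 0.54 (SE 0.25) in MT-TV, and none passed.

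Of 14470 genes outside the mitochondrial genome, those whose log2 CPM over the 9 libraries ran most like the mean of the 10 tRNA genes were LMAN2 (Pearson r = 0.979), which encodes a cargo lectin of the secretory pathway, MYC (r = 0.970), a transcription factor, and VPS16 (r = 0.968), a subunit of endosomal tethering complexes. The points are the 9 libraries, which share group, depth and scaling, so the likeness is a description. On gene sums, scaled over genes, LMAN2 stood at 160 ± 11.2 CPM in MDH2 IP, 156 ± 18.8 in IgG IP and 113 ± 14.8 in SMI (SD, n = 3).

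**Figure D2:**
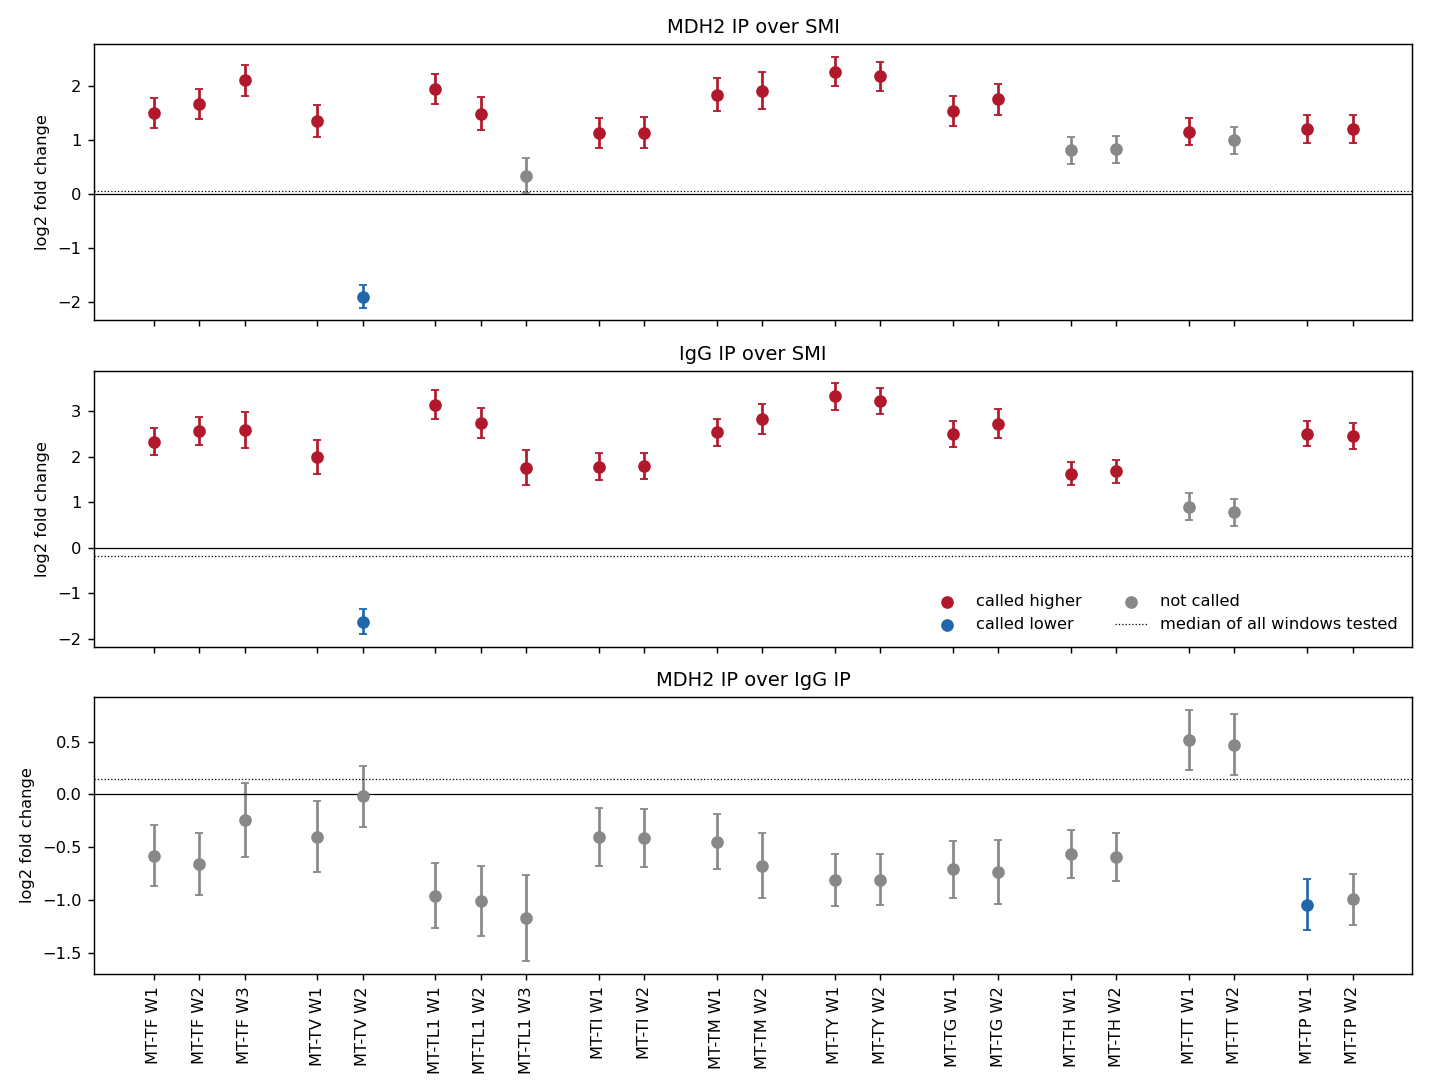
Log2 fold change of each window (vertical axes, bars are standard errors, 3 libraries against 3) for MDH2 IP over SMI, IgG IP over SMI and MDH2 IP over IgG IP, with the median of all windows tested dotted. Both IPs lie above SMI except in MT-TV W2, while between the IPs the members lie mostly below the dotted line and MT-TT lies above it.

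Within a gene, the windows showed 3 kinds of profile, read from the count of the last window as a share of the first plus the last. In MT-TI, MT-TY, MT-TH, MT-TT and MT-TP this share was between 48.7% and 52.6% as a group mean, so both windows held nearly the same count. Where the counts of both windows are nearly equal, the sites can lie in the stretch they share, which holds the anticodon. In MT-TH the share was 48.9% ± 0.306 in MDH2 IP, 49.4% ± 0.453 in IgG IP and 48.7% ± 0.332 in SMI (SD, n = 3). In MT-TI it was 50.2% ± 0.206 in MDH2 IP, 50.4% ± 0.439 in IgG IP and 50.2% ± 0.0988 in SMI.

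In MT-TM, MT-TG, MT-TF and MT-TL1 the first window outweighed the last. MT-TM W1 held 478, 620 and 314 counts in MDH2 IP, 75, 209 and 76 in SMI and 157, 94 and 65 in IgG IP. Its W2 held 160, 208 and 90 counts in MDH2 IP, 18, 66 and 26 in SMI and 63, 33 and 25 in IgG IP. A site counted in W1 and not in W2 must lie in the first 20 nt, before the anticodon. The surplus of W1 placed at least 66.5% to 71.3% of its counts there in MDH2 IP, 59.9% to 64.9% in IgG IP and 65.8% to 76.0% in SMI.

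MT-TG, the glycine tRNA, was similar at a lower share, with 334, 443 and 236 counts in W1 and 156, 234 and 128 in W2 in MDH2 IP. At least 45.8% to 53.3% of its W1 counts lay in the first 20 nt in MDH2 IP, 44.7% to 51.6% in IgG IP and 47.7% to 60.4% in SMI. All groups overlapped for MT-TG, in the share as in this bound.

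MT-TL1 differed between input and IPs. Its windows held 176, 84 and 32 counts from W1 to W3 in MDH2 IP replicate 1, 280, 150 and 55 in replicate 2 and 132, 70 and 29 in replicate 3. In SMI the fall was shallower, with 36, 31 and 24 counts, 55, 35 and 34, and 47, 32 and 25. The IgG IP held 103, 60 and 29 counts, 66, 29 and 12, and 25, 17 and 5. The share of the last window was 16.6% ± 1.32 in MDH2 IP, 18.01% ± 3.49 in IgG IP and 37.6% ± 2.68 in SMI (SD, n = 3). The IgG IP was below SMI in all libraries (exact two-sided permutation test p = 0.1, adjusted 0.2), and the IPs overlapped.

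MT-TV had the opposite profile and the largest difference between input and IPs. W1 held 96, 89 and 74 counts in MDH2 IP, 17, 48 and 27 in SMI and 30, 12 and 15 in IgG IP, so both IPs lay above SMI in CPM. W2 held 275, 251 and 179 counts in MDH2 IP, 615, 837 and 892 in SMI and 75, 30 and 19 in IgG IP, so SMI lay above both IPs. The log2 fold change of MDH2 IP over SMI was 1.35 (SE 0.29) in W1 and -1.90 (SE 0.21) in W2. For IgG IP over SMI it was 2.00 (SE 0.37, edgeR adjusted p = 1.1e-05) in W1 and -1.62 (SE 0.28, adjusted p = 6.2e-06) in W2. Between the IPs the same windows differed by -0.40 (SE 0.34) and -0.02 (SE 0.29), both with an adjusted p of 1.

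The share of MT-TV W2 was 96.3% ± 1.51 in SMI, 72.9% ± 1.87 in MDH2 IP and 66.2% ± 8.98 in IgG IP (SD, n = 3). At least 94.3% to 97.2% of the W2 counts in SMI fell beyond W1, in the last 19 nt of the gene, against 58.7% to 65.1% in MDH2 IP and 21.1% to 60.0% in IgG IP. Summed per gene, MT-TV was the member lower in IgG IP than in SMI, by a log2 fold change of -1.54 (SE 0.23, edgeR adjusted p = 0.000939), which is the sum of these opposite windows.

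Over all 10 genes, the share of the last window did not overlap between MDH2 IP and IgG IP in 3 (lower in MDH2 IP in MT-TM and MT-TT, higher in MT-TP), where the same was found in 13.1% of 18131 pairs of adjacent windows tested. It did not overlap between IgG IP and SMI in 5 (lower in IgG IP in MT-TV, MT-TL1, MT-TY and MT-TP, higher in MT-TM), where it was found in 17.2% of 15028 such pairs. MT-TF and MT-TL1 were compared over W1 and W3, which are not adjacent. With 3 libraries against 3 the exact permutation test cannot give a p below 0.1, so no gene could pass, and the lowest adjusted p was 0.333 between the IPs and 0.2 between IgG IP and SMI. Several of these differences were small, such as 50.3% ± 0.207 against 49.4% ± 0.0950 in MT-TP (SD, n = 3).

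**Figure D3:**
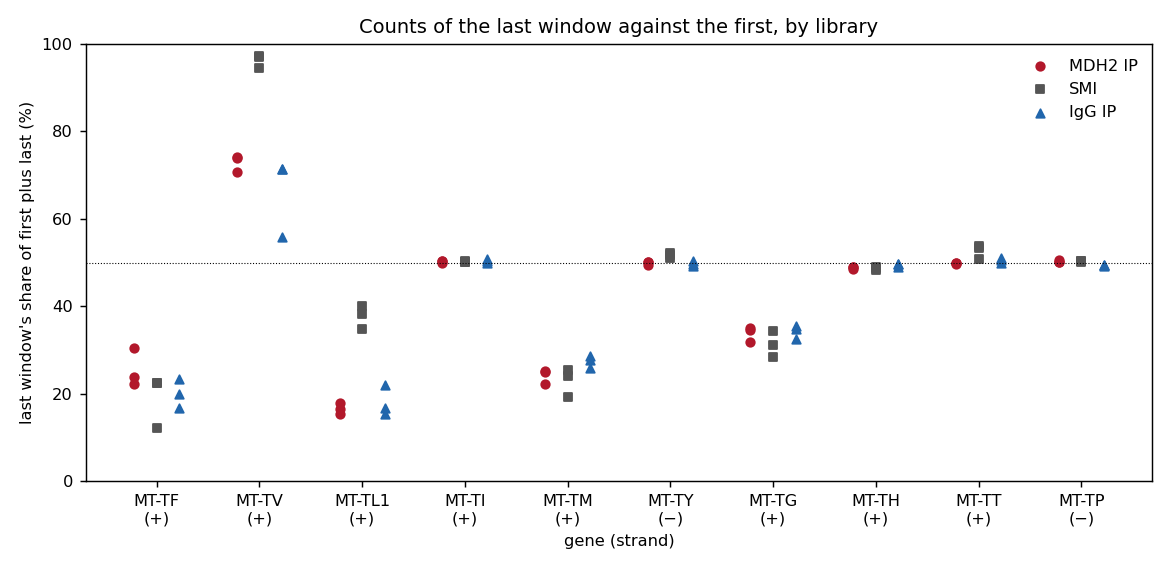
Count of the last window as a percent of the first plus the last (vertical axis), with a point for each library (circles, MDH2 IP. Squares, SMI. Triangles, IgG IP) and the strand under each gene. MT-TI, MT-TY, MT-TH, MT-TT and MT-TP sit near the dotted line of 50%, MT-TV lies above it with SMI highest, and MT-TL1 is lower in both IPs than in SMI.

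The genes next to the tRNAs on the same strand had their own pattern. MT-TV is followed without a gap by MT-RNR2, the 16S rRNA of the large ribosomal subunit. The junction is shown because MT-TV W2 ends there, with the end of the tRNA in capitals and the start of the rRNA in lower case, at chrM:1651-1690 of GRCh38.
MT-TV and MT-RNR2 junction: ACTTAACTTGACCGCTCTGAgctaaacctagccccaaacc
A read that starts at the first base of MT-RNR2 is counted 1 nt upstream, at the last base of MT-TV, which lies in W2 and not in W1. The first window of MT-RNR2 held 3827, 2870 and 2663 counts in MDH2 IP, 5903, 8725 and 8922 in SMI and 827, 456 and 443 in IgG IP. It was lower in MDH2 IP than in SMI by a log2 fold change of -1.49 (SE 0.18) and lower in IgG IP by -1.03 (SE 0.24, edgeR adjusted p = 0.00203). MT-TV W2 and MT-RNR2 W1 were thus both lower in each IP than in SMI, and whether the rRNA's 5′ end made the counts of MT-TV W2 was not tested.

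MT-TL1 follows MT-RNR2 without a gap. The last window of MT-RNR2 held 2247, 2543 and 2178 counts in MDH2 IP, 3195, 7004 and 5132 in SMI and 935, 515 and 401 in IgG IP, with a log2 fold change of MDH2 IP over SMI of -1.25 (SE 0.22). MT-TL1 W1, which starts at the next base, had a value of 1.94 (SE 0.28) in the same comparison. The direction thus turned at this boundary in MDH2 IP over SMI, as a description. In IgG IP over SMI the values were -0.32 (SE 0.24, edgeR adjusted p = 1) and 3.15.

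At the other boundaries the neighbours were close to SMI, held few counts or, before MT-TH, were lower than SMI. MT-RNR1, the 12S rRNA that follows MT-TF, held 1550, 1761 and 1164 counts in W1 in MDH2 IP against 1124, 1748 and 1587 in SMI, a log2 fold change of -0.14 (SE 0.20), while MT-TF W3 before it had 2.10. MT-ND3 W1, after MT-TG, had 0.00 (SE 0.25), and MT-ND1 W1, 2 nt after MT-TL1, had -0.03 (SE 0.24). Both encode subunits of respiratory complex I. MT-ND4 W68, before MT-TH, held 10 to 17 counts in MDH2 IP and 19 to 34 in SMI and was called lower in MDH2 IP, with a log2 fold change of -1.21 (SE 0.34), while MT-TH W1, which starts at the next base, had 0.81. MT-CO3 W38, before MT-TG, held 10 to 20 and 18 to 31 counts, with -0.91 (SE 0.33) and no call.

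The window of MT-RNR1 before MT-TV, the last window of MT-ND1 before MT-TI and the last window of MT-CYB before MT-TT held 0 to 11 counts in any library. MT-TS2, the serine tRNA that follows MT-TH without a gap, held 35, 39 and 21 counts in W1 in MDH2 IP, 6, 28 and 15 in SMI and 13, 2 and 4 in IgG IP. MT-TH W2 before it held 1226, 1538 and 1000 counts in MDH2 IP. The first window of MT-ND2 after MT-TM was not in the table, and MT-TC W2, which shares 1 nt with MT-TY, held 1 count in all.

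**Figure D4:**
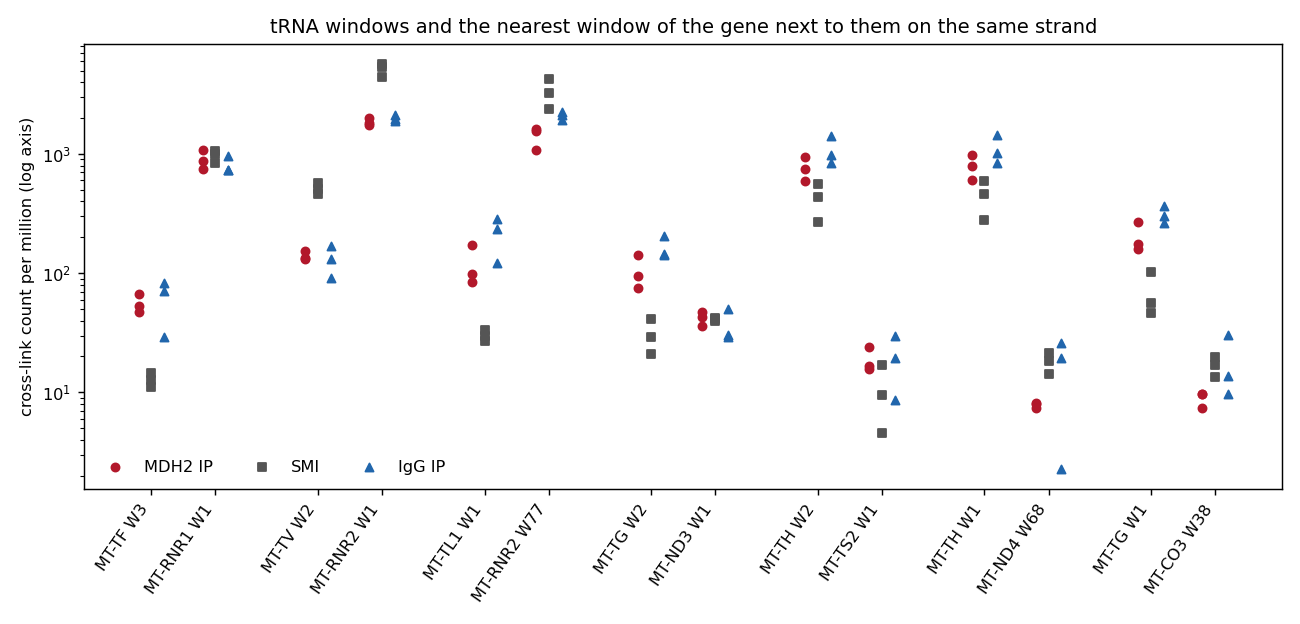
Cross-link counts as CPM (log axis) in windows of MT-TF, MT-TV, MT-TL1, MT-TG and MT-TH beside the nearest window of the neighbouring gene on the same strand, with a point for each library (circles, MDH2 IP. Squares, SMI. Triangles, IgG IP). MT-TV W2 and both MT-RNR2 windows have SMI above MDH2 IP, while the windows of MT-TF, MT-TL1, MT-TG and MT-TH have MDH2 IP above SMI.

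As classes, the mitochondrial rRNAs and mRNAs did not share the position of the chosen tRNA genes against SMI. Those genes were chosen with MDH2 IP over SMI known, so this contrast is not free of that choice and does not describe mitochondrial tRNAs as a class. Of the other mitochondrial tRNA genes, 2 windows were tested for MDH2 IP over SMI, with 0 called and a median of 0.76. For IgG IP over SMI, 1 such window was tested, at 1.28 and without a call. Of 117 rRNA windows tested, 0 were called higher and 66 lower in MDH2 IP than in SMI, with a median log2 fold change of -1.10. Of 509 mRNA windows, 0 were called higher and 83 lower, with a median of -0.62. For IgG IP over SMI, 1 of 116 rRNA windows was called higher and 22 lower (median -0.56), and 32 of 502 mRNA windows were called higher and 2 lower (median 0.18). Between the IPs the medians were -0.63 in the 22 windows of the chosen tRNA genes, -0.60 in 505 mRNA windows and -0.21 in 117 rRNA windows. These windows overlap one another and share libraries, so the medians are a description.

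By strand, the 18 windows of the 8 plus-strand genes had a median log2 fold change of 1.41 for MDH2 IP over SMI and the 4 windows of MT-TY and MT-TP had 1.69. For IgG IP over SMI the medians were 2.17 and 2.87, and between the IPs they were -0.57 and -0.90. The plus-strand values ranged from -1.90 to 2.10 over SMI and enclosed that of MT-TP, so 2 minus-strand genes do not separate the strands. MT-TI overlaps MT-TQ, on the opposite strand, by 3 nt, and MT-TT and MT-TP lie 2 nt apart on opposite strands. MT-TQ held 29 counts over all windows and libraries and MT-TI held 2972. MT-TT and its neighbour MT-TP had opposite signs for MDH2 IP over IgG IP in W1, 0.51 and -1.04.

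The other 12 mitochondrial tRNA genes held far fewer counts, which follows from the choice of the 10 genes by their measured counts. The sum of window counts over the 9 libraries ran from 1673 in MT-TL1 to 13709 in MT-TH among the 10 genes, and from 0 to 164 among the other 12. The gene just outside was MT-TS2, with 164 counts, of which the highest in any library and window was 39. MT-TS1 was not in the table and stands at 0. Of the 10 genes, 8 are on the plus strand, and of the other 12, 6 are.

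Nuclear DNA holds copies of mitochondrial DNA, and reads with more than 10 alignments were dropped while others could be shared. In the 10 genes a median of 31.1% of sites (0% to 100%) were followed by 30 nt that also occur exactly in the nuclear chromosomes, against 68.7% (36.6% to 100%) in the other 12. With 50 nt these shares were 1.48% (0% to 60.9%) and 40.3% (8.45% to 100%). MT-TT and MT-TL1 had no such site at either length, while MT-TV had 100% at 30 nt. In MT-TF W3 all 31 sites were followed by such a stretch at both lengths. Among the other 12, MT-TL2 had 36.6% at 30 nt and 8.45% at 50 nt and held 95 counts, fewer than MT-TI with 47.8% and 20.3% and 2972 counts. The part of these copies in the counts was not tested.

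**Figure D5:**
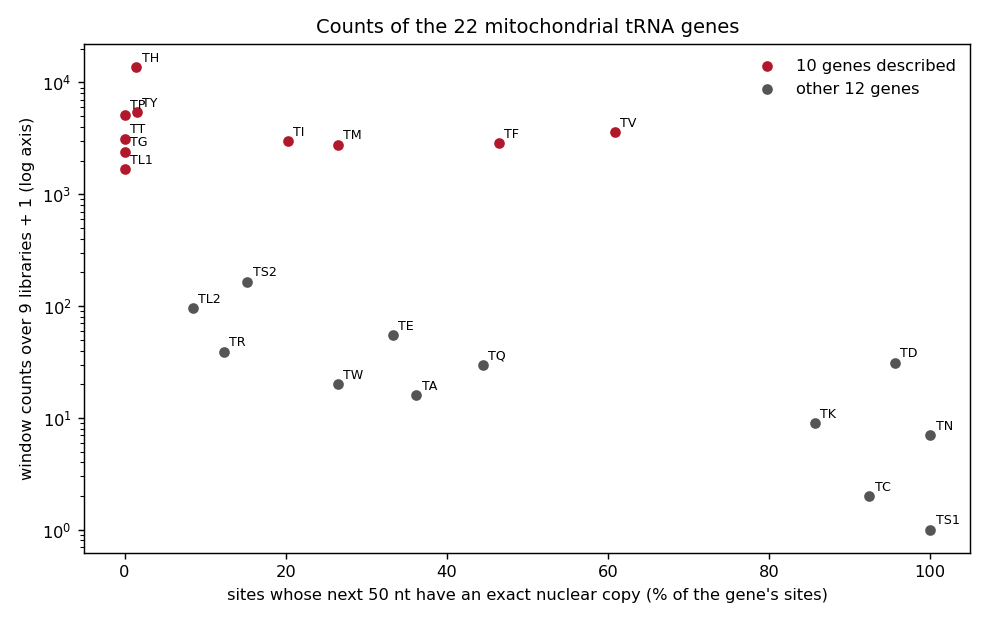
Sum of window counts over 9 libraries plus 1 (log axis) against the share of sites whose next 50 nt occur exactly in the nuclear chromosomes, for the 22 mitochondrial tRNA genes (names without MT-). The 10 genes described were chosen by their counts. They hold 1673 counts or more and the other 12 hold at most 164, before the 1 is added.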

How the data were processed

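The authors deposited counts of cross-link sites in windows, without normalization, for the 9 libraries, 3 per group. According to their methods, adapters and reads under 18 nt were removed (cutadapt), reads were aligned to GRCh38 with STAR, reads with over 10 alignments and PCR duplicates (by molecular identifier) were dropped, and sites were counted over GENCODE release 23 genes with added tRNA genes. The table lists 35309 identifiers, and 0 columns were left unused. Of the 34950 Ensembl identifiers, 33751 matched GENCODE release 44, from which names and coordinates came. A numbered identifier with the counts of MT-TL1 was left out. A site enters up to 3 windows, so neighbouring windows are not independent, and nuclear copies can take or give reads.

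The edgeR quasi-likelihood test (edgeR 4.0.16, R 4.3.3, TMM) was run on windows, and on gene sums, that reached 10 counts in 3 or more of the 6 libraries of a comparison, and no other group entered the fit. Window p-values were one-sided each way, corrected for how many tested windows overlapped, then Benjamini-Hochberg adjusted over all windows. With TMM the library size was the sum over the windows or genes that passed the filter on counts. Gene p-values were two-sided. Shares were compared by exact two-sided permutation. The tests were tried on simulated data. DESeq2 1.42.0, other scalings, filters and fits and leaving out each library were the alternatives. No replicate pair agreed within sampling noise (chi-square per degree of freedom at least 6.26). The members, lists and named genes (the 10 genes, their neighbours, the other mitochondrial genes and the 3 genes most like the members) were chosen with earlier results of these data known. Python 3.11.15 made tables and plots.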

Additional observations from a re-analysis of the deposited data

How the results depend on the processing

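The 17 windows higher in MDH2 IP than in SMI became 8 to 20 when a library was left out, and the 19 higher in IgG IP than in SMI kept within 1.5 times under every alternative run. Without a filter the window tests were not run. By the authors' methods SMI was 1% of the input, taken before the IP, so libraries of one replicate number may share a lysate. The check applied cannot settle this, because it correlated deviations from the group means only between libraries of one number. The values were 0.0431, 0.384 and 0.381 between MDH2 IP and SMI for replicates 1 to 3. They were -0.0118, 0.121 and 0.186 between the IPs and -0.00255, 0.13 and 0.155 between IgG IP and SMI. With the replicate block, 3819 of all windows were called higher in MDH2 IP than in SMI, against 2080 without it. Among the members, the block took the count of windows lower in MDH2 IP than in IgG IP from 1 to 2. MT-TV W2 then stood at 0.015, and every other count of the members' calls stayed within 1.5 times. The count lower in MDH2 IP than in IgG IP was also 2 with TMM computed without mitochondrial and numbered tRNA windows and with all 9 libraries in the fit. It was 0 with DESeq2, with total counts and with at least 5 counts as the filter. It ran from 0 to 2 with a library left out. With total counts 2 windows were higher in MDH2 IP. The genes called higher in MDH2 IP against IgG IP ran from 0 to 1 with a library left out, those higher in IgG IP than in SMI from 6 to 8, and the genes with shares that did not overlap from 3 to 5 between the IPs and from 5 to 8 between IgG IP and SMI.

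Only values that were not called changed sign. They include both windows of MT-TY between the IPs, which had edgeR adjusted p-values of 0.0394 and 0.0431 but missed the fold needed for a call. Between the IPs, total counts as library size turned MT-TF to 0.25, 0.18 and 0.57 in W1 to W3, MT-TV to 0.43 and 0.80, MT-TI to 0.45 and 0.44, MT-TM to 0.40 and 0.16, MT-TY to 0.031 and 0.036, MT-TG to 0.16 and 0.13 and MT-TH to 0.27 and 0.23. MT-TV W2 was at 0.019 with DESeq2's test, at 0.016 with its size factors and at 0.25 with at least 5 counts, where MT-TF W3 was at 0.026. Summed per gene, total counts gave 0.033 for MT-TY and 0.15 for MT-TG, TMM without mitochondrial and numbered tRNA windows gave 0.0057 for MT-TG, at least 5 counts gave 0.048 for MT-TG, and at least 1 count in any library gave 0.0089 for MT-TY and 0.12 for MT-TG. As a share of all its windows, the last window of MT-TF was lower in IgG IP than in SMI by -0.20 percentage points. With a library left out, values between the IPs crossed 0 in MT-TF W3 (-0.52 to 0.19), MT-TV W2 (-0.19 to 0.35), MT-TI W1 (-0.48 to 0.088) and MT-TI W2 (-0.51 to 0.079). Summed per gene they did so in MT-TF (-0.15 to 0.36), MT-TM (-0.12 to 0.38), MT-TY (-0.32 to 0.12), MT-TG (-0.30 to 0.22) and MT-TH (-0.093 to 0.42). Differences of the shares crossed 0 in MT-TL1 (-2.71 to 0.579 percentage points), MT-TY (-0.121 to 0.446) and MT-TG (-1.36 to 0.516) between the IPs and in MT-TF (-2.46 to 2.73) between IgG IP and SMI. The cause of these changes was not tested. Depth limits the IgG IP values, where MT-TF W3 and MT-TL1 W3 fell to 6 and 5 counts in a library.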
